A study of Homo sapiens with 6 samples.

Results

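The genes described here belong to the integrated stress response and the unfolded protein response: the kinases that phosphorylate the translation factor eIF2alpha, the transcription factor ATF4 with its partners and stress targets, the enzymes and transporters that supply amino acids, and the IRE1 and ATF6 arms that serve the endoplasmic reticulum (ER). They are 49 of the 58051 genes in the deposited count table, taken by symbol from a list of named members; heat shock and DNAJ genes were left out of it. All 49 were found and all 49 passed the filter on low counts. They fall into 6 eIF2alpha kinases and phosphatase subunits, 13 genes of ATF4, its partners and its stress targets, 10 amino acid and one-carbon enzymes, 6 amino acid transporters and 14 genes of the IRE1 and ATF6 branch.

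The RNA came from HEK293T, an established kidney-derived human line with SV40 T antigen, at passages 5 to 10. One group had been transfected with the empty vector pcDNA3.1- and the other with pcDNA3.1-ppk1, the same vector carrying the gene of a bacterial polyphosphate kinase. Both groups were transfected with a lipid reagent and kept 48 hours in OptiMEM, so these conditions are shared. Which of the named reagents and how much plasmid each library received is not given by sample. There were 3 libraries a group, lettered B, C and D, and the series describes libraries of a letter as matched biological replicates. The comparison asks which of these stress genes differ in transcript level when the enzyme, which builds long polyphosphate chains, is present. Transient transfection leaves a mixture of cells that took up plasmid and cells that did not, and the ppk1 transcript itself was not analysed here.

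As background, 4 kinases sense different stresses and meet at eIF2alpha: EIF2AK1 (HRI) responds to low heme and to mitochondrial stress, EIF2AK2 (PKR) to double-stranded RNA, EIF2AK3 (PERK) to misfolded protein in the ER, and EIF2AK4 (GCN2) to amino acid shortage. Phosphorylated eIF2alpha slows general translation but favours translation of the ATF4 message, and ATF4 then drives genes of amino acid supply, redox balance and, under prolonged stress, cell death. In the ER, IRE1 (gene ERN1) splices the XBP1 message and ATF6 is cut in the Golgi apparatus, and the resulting factors drive chaperones and degradation genes. Counts per gene show neither eIF2alpha phosphorylation, nor XBP1 splicing, nor ATF6 cleavage, nor the translation of ATF4.

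The libraries held between 40851783 and 67122986 counts. All 8 genes listed as HEK293T markers averaged at least 1 CPM (counts per 1e+06 counts of a library, scaled between libraries by TMM) in both groups, with a summed level of 889 to 1005 CPM with the empty vector and 856 to 896 CPM with ppk1. Among them NEFL was lower (log2 fold change -0.29) and KRT18 higher (0.28) with ppk1. Of 10 markers of other cell types, 8 stayed under 1 CPM in both groups, with COL1A1 and CDH1 as the exceptions. Their summed level was 26.8 to 30.6 CPM with the empty vector and 28.2 to 28.95 CPM with ppk1, and the leukocyte marker CD3E and the endothelial marker CDH5 were at 0 in 5 of the 6 libraries. ALB was lower with ppk1, at under 1 CPM throughout. The mitochondrially encoded genes took 3.99, 4.13 and 4.17% of the counts with the empty vector in pairs B, C and D and 4.78, 5.72 and 4.81% with ppk1.

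Regulatory sequence near the start sites is shown first, because these branches are usually recognised by it. RefSeq promoter windows (GRCh38.p14, 250 bases before to 50 after a start) were matched by symbol for 42 of the 49 genes, in 62 windows. EIF2AK1, INHBE, NUPR1, PSPH, SHMT2, PYCR1 and SLC7A11 had no match. The patterns searched, on both strands, were TGATGNAA, the core of the element bound by ATF4 with C/EBP partners (CARE), the ER stress element ERSE (CCAAT and CCACG with 9 bases between), bound by ATF6 and XBP1 together with NF-Y, and TGACGTGG, the core of the unfolded protein response element (UPRE). The UPRE core can overlap the CCACG end of an ERSE, although no gene here held both patterns as searched. Other spacings and orientations of CCAAT and CCACG were not searched. Close copies can be read in the windows of HERPUD1 (attgggccacg), HYOU1 (cgtggtccaat) and SDF2L1 (cgtggaccaat), and the ERSE counts leave them out. In HYOU1 such a copy overlaps the UPRE core. In the arrangement searched, ERSE was found in 5 of the 14 genes of the IRE1 and ATF6 branch (35.7%). No matched gene of the other 4 branches held it. Among tested genes with a window, 16 of 11458 did (0.140%). The matches, with 5 bases on either side, are set out below on the gene's own strand with the element in capitals.
CRELD2 (chr22:49918549-49918577): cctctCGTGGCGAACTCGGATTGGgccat
XBP1 (chr22:28800598-28800626): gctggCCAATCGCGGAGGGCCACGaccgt
CALR (chr19:12938379-12938407): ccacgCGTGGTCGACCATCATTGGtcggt
CANX (chr5:179698773-179698801): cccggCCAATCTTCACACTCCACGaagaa
ERO1B (chr1:236282178-236282206): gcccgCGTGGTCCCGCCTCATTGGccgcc

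The CARE core lay in a window of 9 of the 42 genes (21.4%), against 2.79% of the tested genes with a window. These 9 were PPP1R15B, CHAC1, CEBPG, FGF21, ASNS, SLC7A1, SLC3A2, SLC1A5 and HERPUD1. Below are 4 usual ATF4 reporters or partners, and SLC3A2, which fell, shown with up to 11 bases on either side and the core in capitals on the strand of the gene.
CHAC1 (chr15:40953251-40953280): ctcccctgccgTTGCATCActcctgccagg
SLC3A2 (chr11:62881725-62881748): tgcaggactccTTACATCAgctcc
CEBPG (chr19:33374060-33374089): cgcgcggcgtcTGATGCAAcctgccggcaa
ASNS (chr7:97872458-97872487): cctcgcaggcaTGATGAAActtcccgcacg
HERPUD1 (chr16:56931955-56931984): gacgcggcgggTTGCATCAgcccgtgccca
The UPRE core was found in ALDH18A1 and HYOU1, 2 of 42 genes (4.76%), against 1.196% of the tested genes. These matches describe letters in a window and not bound sites.

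Of the 49 genes, 8 were higher and 2 lower with ppk1 at a Benjamini-Hochberg adjusted p below 0.05 over all 19574 genes tested (edgeR's quasi-likelihood test with the replicate letter as a block). The risen genes were ATF4, ATF5, TRIB3, CEBPB, SLC7A5, SDF2L1, CRELD2 and MANF, and the fallen genes were INHBE and SLC3A2. These counts correspond to 16.3% higher and 4.08% lower, beside 4.04% higher and 5.04% lower among all tested genes (9.08% in either direction). The members were chosen with earlier results of these data known, so the shares are a description and not independent support. The changes were modest, at 1.19-fold to 1.55-fold for the rises, and the fall of INHBE to 0.448 of its level was the largest. In bulk RNA, a change in few cells cannot be told apart from a smaller change in every cell. The median log2 fold change of the 49 genes was 0.03, beside 0.01 for all tested genes. Without regard to sign, these medians were 0.12 and 0.13, so the typical size of change was no larger in the 49 genes. Their SEs ran from 0.07 to 0.22, and those of all tested genes from 0.03 to 0.70. The part of this precision in the share called was not tested. Members went both ways, with 30 positive and 19 negative values. The pair medians of the 49 genes were 0.03, 0.07 and 0.08 in B, C and D, beside 0.01, 0.02 and -0.00 over all tested genes.

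The branches differed in how many of their genes passed the test. Among ATF4, its partners and targets, 4 of 13 genes rose and 1 fell, and in the IRE1 and ATF6 branch 3 of 14 rose and 0 fell. The transporters had 1 rise and 1 fall among 6 genes. The eIF2alpha kinases and phosphatase subunits had 0 of 6 called and the amino acid and one-carbon enzymes 0 of 10. Over all tested genes 9.08% were called, a share at which so few genes can readily give 0 calls. At an unadjusted p below 0.05, edgeR gave 1 of 6 and 3 of 10 genes in these last 2 branches, beside 23.8% of all tested genes, and DESeq2 also called 0 in each. The branch medians of the log2 fold change were -0.01 (kinases and phosphatase), 0.02 (ATF4 group), 0.09 (enzymes), -0.01 (transporters) and 0.03 (IRE1 and ATF6). In the separate pairs these medians ran from -0.03 to 0.19 in the ATF4 group and from -0.00 to 0.15 among the enzymes. The difference between branches was described by these counts and was not tested.

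**Figure D1:**
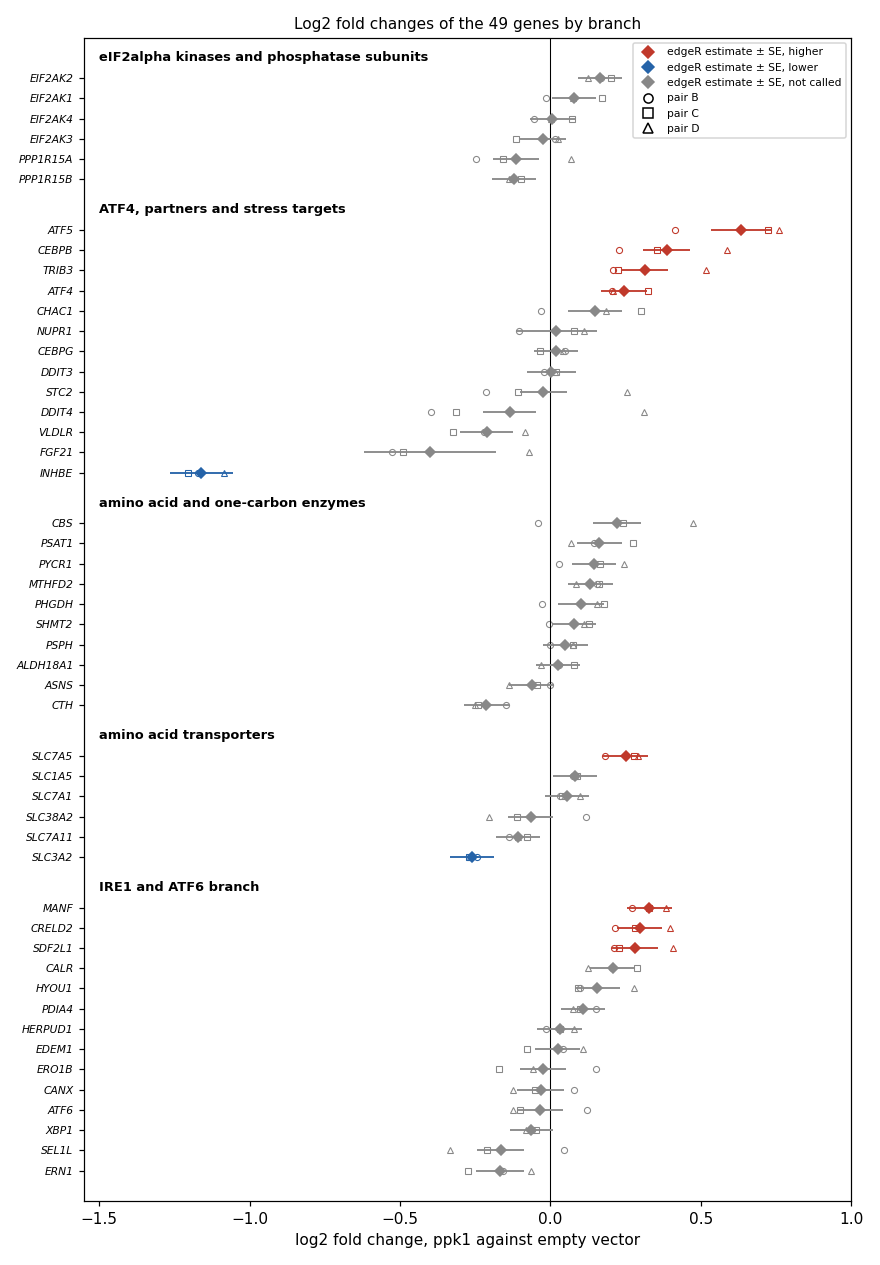
Log2 fold change (ppk1 against empty vector, x axis) of each of the 49 genes, grouped by branch and sorted within it. Diamonds with bars are the edgeR estimate ± SE, open symbols the 3 pairs, red a called rise, blue a called fall and grey no call. INHBE stands apart on the left at -1.16, and most other genes lie within 0.4 of 0.

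Of the sensors, EIF2AK2 came nearest to a change. EIF2AK2, the double-stranded RNA sensor, stood at 85.7, 87.1 and 86.4 CPM with the empty vector in B, C and D and at 96.4, 100.1 and 94.3 CPM with ppk1. Its groups did not overlap, yet the log2 fold change of 0.17 (SE 0.07) had an adjusted p of 0.157. EIF2AK1 measured 192, 182 and 173 CPM in the control and 190, 205 and 182 CPM in the ppk1 libraries, with overlapping groups and a log2 fold change of 0.08 (adjusted p 0.567). EIF2AK3 (27.2 ± 0.36 against 26.7 ± 1.27 CPM, mean ± SD, n = 3 libraries a group) and EIF2AK4 (81.0 ± 3.71 against 81.4 ± 1.31 CPM) differed by less than the larger of their group SDs. Per kilobase of exon, the empty vector cells held 32.9 ± 1.74 CPM of EIF2AK1, 8.04 ± 0.06 of EIF2AK2, 6.78 ± 0.31 of EIF2AK4 and 5.01 ± 0.07 of EIF2AK3. By this measure the HRI message was the most abundant of the kinases. The lengths take in all annotated exons. Exons of EIF2AK1 overlap those of AIMP2 on the opposite strand, and EIF2AK2 and EIF2AK3 also have such overlaps, so the ranking is uncertain.

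The phosphatase subunits that reverse the eIF2alpha mark were lower on average but not called. PPP1R15A (GADD34), itself an ATF4-dependent feedback gene, stood at 48.7, 40.5 and 40.4 CPM in the control and 41.1, 36.3 and 42.4 CPM with ppk1, and it went down in pairs B and C and up in D. PPP1R15B (CReP), the constitutive subunit, averaged 130 ± 5.72 and 119 ± 4.94 CPM, with all ppk1 libraries below all controls and an adjusted p of 0.316. Offsets for GC content and transcript length brought PPP1R15A (log2 fold change -0.18) and EIF2AK2 (0.24) past the threshold, with adjusted p-values of 0.0275 and 0.00248.

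ATF4 (ENSG00000128272, chromosome 22), the central transcription factor, was abundant and rose slightly. Its level was 729, 718 and 762 CPM with the empty vector in B, C and D and 840, 900 and 879 CPM with ppk1. Every ppk1 library lay above every control library. edgeR gave a log2 fold change of 0.25 (SE 0.08, adjusted p 0.0311). Of its sequence, 17.9% of the 50-base stretches of its transcripts also occur in other genes, chiefly the pseudogene ATF4P3, so its value is uncertain where shared reads were assigned. The call was lost without the block (adjusted p 0.0897), without pair B (0.0732) and without pair C (0.525).

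ATF5 (ENSG00000169136, chromosome 19), a related factor that is translated under the same control as ATF4 and is known for the mitochondrial stress response, had the largest rise of the group from a low level. It measured 7.23, 8.51 and 7.44 CPM in the control libraries and 9.66, 14.1 and 12.6 CPM with ppk1, from 304 to 675 counts a library. The groups did not overlap, and the ppk1 library of pair C was the highest. The log2 fold change was 0.63 (SE 0.10, adjusted p 1.1e-05), at 0.41, 0.72 and 0.76 in the pairs. ATF5 shares exon positions with NUP62 and IL4I1 on the opposite strand, of which NUP62 (105 CPM on average in the control and 118 CPM with ppk1) had a log2 fold change of 0.17 (adjusted p 0.143). Whether the counting kept the strands apart is not given in the sources used here.

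CEBPB (ENSG00000172216, chromosome 20), a C/EBP factor that pairs with ATF4 on composite elements, went from 30.3, 31.9 and 25.6 CPM to 35.5, 40.8 and 38.5 CPM in B, C and D. The lowest ppk1 library was above the highest control. Its log2 fold change was 0.39 (SE 0.08, adjusted p 0.000641), and its antisense partner CEBPB-AS1, at 1.66 and 1.26 CPM on average, had a log2 fold change of -0.42 (adjusted p 0.143). TRIB3 (ENSG00000101255, chromosome 20), a pseudokinase that feeds back on ATF4, went from 38.4, 34.7 and 29.7 CPM to 44.4, 40.5 and 42.5 CPM. The groups were again separate, with the largest step in pair D (0.52 on the log2 scale, against 0.21 in B and 0.22 in C). The log2 fold change of TRIB3 was 0.31 (SE 0.08, adjusted p 0.00543), and it lost the call without the block (0.0993), without C (0.102) and without D (0.115).

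INHBE (ENSG00000139269, chromosome 12), which encodes the activin beta E subunit and is usually induced by ATF4 and CHOP, fell in the same libraries. Its level was 13.4, 9.66 and 10.9 CPM with the empty vector and 5.94, 4.17 and 5.12 CPM with ppk1, from 428 to 709 and 200 to 397 counts. The highest ppk1 library was well below the lowest control. The log2 fold change was -1.16 (SE 0.10, adjusted p 7.0e-12), and the pairs gave -1.17, -1.20 and -1.09. INHBE kept its call under every alternative that was run, with log2 fold changes from -1.21 to -1.14, and it was the only one of the 49 genes to change more than 2-fold.

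The remaining 8 genes of the ATF4 group were not called. DDIT3 (CHOP), the factor tied to death under prolonged stress, stood at 20.5, 17.4 and 20.5 CPM in the control and at 20.2, 17.7 and 20.7 CPM with ppk1, so each pair lay almost level. Its log2 fold change was 0.00 (SE 0.08), and its exons overlap those of MARS and MBD6 on the other strand. CHAC1, a glutathione-degrading ATF4 target, measured 13.8, 14.0 and 13.4 CPM against 13.5, 17.2 and 15.3 CPM, and the groups overlapped through pair B (adjusted p 0.320). The C/EBP partner CEBPG (122.8 ± 3.86 against 124.5 ± 7.37 CPM), the stress protein gene NUPR1 (3.25 ± 0.44 against 3.30 ± 0.17 CPM) and the glycoprotein hormone gene STC2 (251 ± 37.4 against 245 ± 3.77 CPM) differed by less than the larger of their group SDs. VLDLR, a lipoprotein receptor, averaged 16.4 ± 0.84 and 14.1 ± 1.08 CPM with separate groups (adjusted p 0.123), and the hormone gene FGF21, at 1.02 ± 0.22 and 0.78 ± 0.11 CPM, was the least precisely measured of the 49 (SE 0.22).

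DDIT4 (REDD1), an inhibitor of mTORC1 that also answers hypoxia and glucocorticoid, was the most variable of the group. The control libraries held 574, 409 and 332 CPM and the ppk1 libraries 435, 329 and 412 CPM. It was lower with ppk1 in pairs B and C (-0.40 and -0.31 on the log2 scale) and higher in D (0.31). With all pairs the log2 fold change was -0.14 (adjusted p 0.355), and without pair D it was -0.38 with an adjusted p of 5.4e-05, so pair D alone decides this call.

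**Figure D2:**
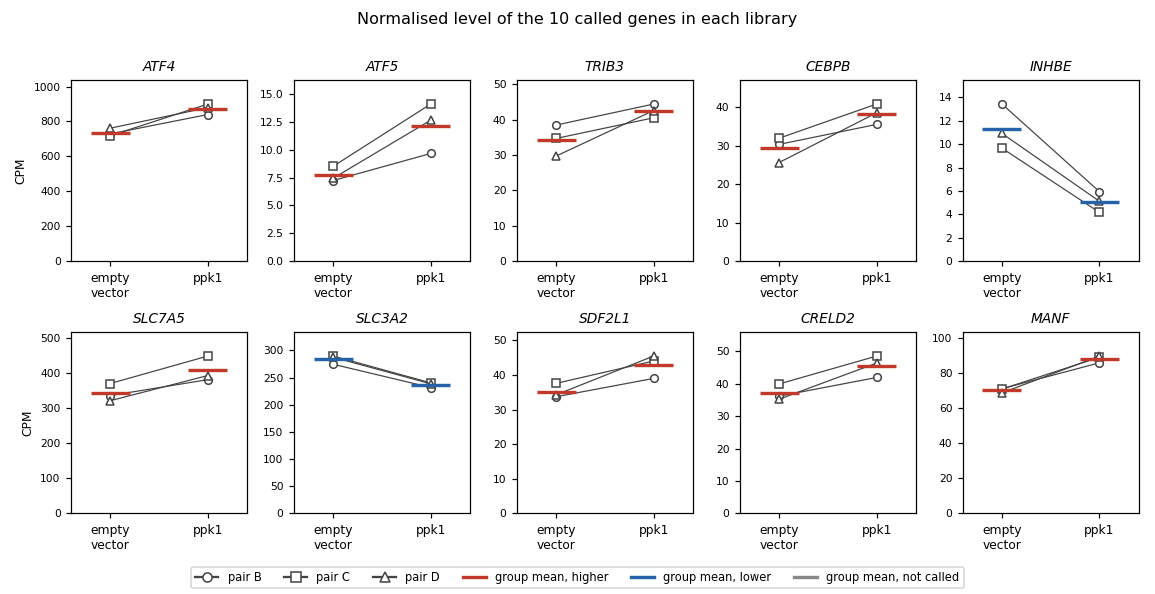
Normalised level (CPM, y axis from 0) of the 10 called genes in the 3 empty vector and 3 ppk1 libraries; lines join libraries of a pair and coloured bars are group means. The groups do not overlap in any panel, and the drop of INHBE from 11.3 to 5.08 CPM is much larger than the other steps.

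The enzymes that make serine, glycine, proline, asparagine and cysteine, and that feed one-carbon units to mitochondria, did not pass the test. Over all pairs 8 of the 10 had a positive log2 fold change, beside 53.1% of all tested genes, but in pair B 6 of the 10 were negative. These were CTH (-0.15), CBS (-0.04) and PHGDH (-0.03), with SHMT2 (-0.004), ASNS (-0.003) and PSPH (-0.0004) almost level. PSAT1, which makes phosphoserine, stood at 348, 372 and 380 CPM in the control and 385, 450 and 399 CPM with ppk1, with separate groups but an adjusted p of 0.170. MTHFD2, the mitochondrial folate enzyme, measured 323, 328 and 339 CPM against 359, 366 and 359 CPM (adjusted p 0.269), and PYCR1, which completes proline synthesis, averaged 220 ± 12.3 and 243 ± 7.17 CPM (0.220). PHGDH, PSPH, SHMT2 and ALDH18A1 had log2 fold changes between 0.03 and 0.10 with overlapping groups.

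ASNS, asparagine synthetase and a standard ATF4 reporter, did not follow ATF4 upward. It measured 423, 414 and 458 CPM with the empty vector and 422, 401 and 416 CPM with ppk1, and the groups overlapped. The log2 fold change was -0.06 (SE 0.07, adjusted p 0.658). Of the 50-base stretches of ASNS, 40.6% also occur in other genes, chiefly the overlapping annotated gene AC079781.5, so its value is uncertain. CTH, the last enzyme of transsulfuration, was at 70.5, 72.7 and 76.9 CPM against 63.6, 61.4 and 64.7 CPM. All its ppk1 libraries were below all controls, at a log2 fold change of -0.21 and an adjusted p of 0.0616. CBS, the enzyme before it, had a log2 fold change of 0.22 (adjusted p 0.0740). Of its 50-base stretches, 54.5% also occur in other genes, chiefly its copy CBSL, so its value is uncertain.

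In the transporter group the partner chains of 1 carrier moved in opposite directions. SLC7A5 (LAT1; ENSG00000103257, chromosome 16) carries large neutral amino acids and works as a heterodimer with the heavy chain SLC3A2 (4F2hc, CD98; ENSG00000168003, chromosome 11). SLC7A5 measured 336, 370 and 321 CPM with the empty vector and 381, 449 and 393 CPM with ppk1, and its lowest ppk1 library was above its highest control. SLC3A2 measured 274, 290 and 287 CPM and fell to 232, 240 and 239 CPM, again with separate groups. The log2 fold changes were 0.25 (SE 0.07, adjusted p 0.0225) for SLC7A5 and -0.26 (SE 0.07, adjusted p 0.0152) for SLC3A2. The pairs gave 0.18, 0.28 and 0.29 for the first and -0.24, -0.27 and -0.27 for the second. Without the block the adjusted p was 0.140 for SLC7A5 and 0.0588 for SLC3A2, and without pair C it was 0.422 and 0.358. SLC7A5 also lost the call without pair D (0.0580).

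The other 4 transporters were not called. SLC7A11, the cystine and glutamate exchanger that also needs the SLC3A2 heavy chain, was at 82.7, 97.2 and 87.1 CPM against 75.0, 92.2 and 80.7 CPM. It was lower in each pair, with pair log2 differences from -0.14 to -0.08, while the groups overlapped (adjusted p 0.394). The glutamine carriers SLC1A5 (371 ± 12.1 against 393 ± 14.2 CPM) and SLC38A2 (283 ± 35.2 against 269 ± 4.53 CPM) and the arginine and lysine carrier SLC7A1 (274 ± 19.8 against 284 ± 15.0 CPM) had adjusted p-values from 0.539 to 0.697.

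**Figure D3:**
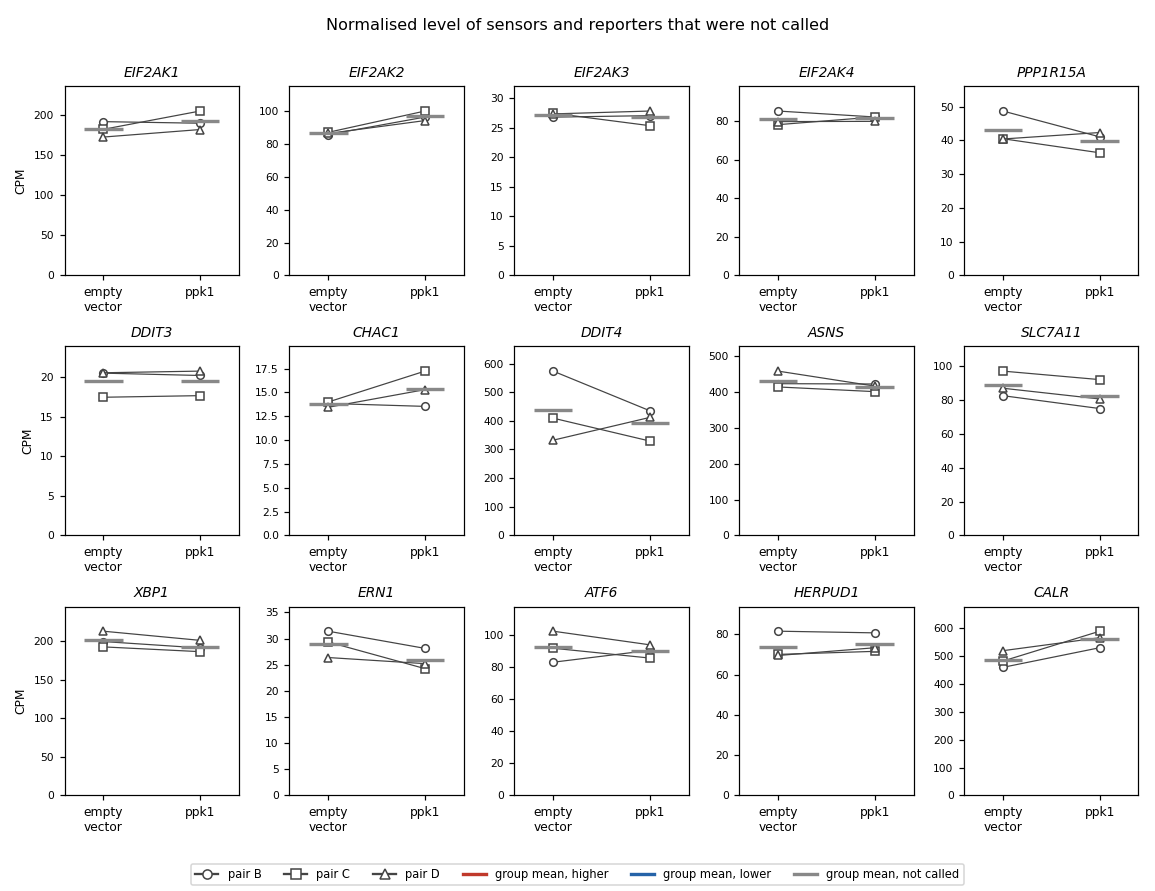
Normalised level (CPM, y axis from 0) of 15 sensors and usual reporters that were not called, drawn for each of the 3 empty vector and 3 ppk1 libraries; lines join libraries of a pair and grey bars are group means. EIF2AK2 and CALR have separate groups, DDIT4 crosses over in pair D, and DDIT3 is level in every pair.

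In the ER branch, the 3 risen genes encode small luminal helpers. MANF (ENSG00000145050, chromosome 3), a secreted ER stress protein that binds the chaperone BiP, stood at 71.0, 70.8 and 68.6 CPM with the empty vector and at 85.7, 88.9 and 89.6 CPM with ppk1. Libraries within a group were close and the groups far apart. The log2 fold change was 0.33 (SE 0.07, adjusted p 0.00233), and among the alternatives it lost the call only without pair C (0.161).

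CRELD2 (ENSG00000184164, chromosome 22), a luminal protein with disulfide isomerase activity, went from 36.2, 39.9 and 35.2 CPM to 41.9, 48.5 and 46.4 CPM. The lowest ppk1 library was above the highest control, and the log2 fold change was 0.30 (SE 0.08, adjusted p 0.00699). CRELD2 overlaps exons of ALG12 on the opposite strand, and ALG12 had a log2 fold change of -0.04 (adjusted p 0.807). SDF2L1 (ENSG00000128228, chromosome 22), a cofactor of the BiP chaperone system, went from 33.7, 37.6 and 34.2 CPM to 39.0, 44.0 and 45.4 CPM, also with separate groups. Its log2 fold change was 0.28 (SE 0.08, adjusted p 0.0111). Both lost the call without the block (0.0758 for CRELD2 and 0.0895 for SDF2L1), without pair C (0.235 and 0.226) and without pair D (0.0550 and 0.105).

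Because these 3 genes rose together, the 250 bases before each start are given below (RefSeq, GRCh38.p14, plus strand, which is the strand of each gene), with the ERSE match in capitals. CRELD2 holds it with its first base 80 bases before the start. The SDF2L1 and MANF windows hold none of the 3 patterns as searched, although SDF2L1 holds cgtggaccaat, the close arrangement named above.
CRELD2 (chr22:49918384-49918633): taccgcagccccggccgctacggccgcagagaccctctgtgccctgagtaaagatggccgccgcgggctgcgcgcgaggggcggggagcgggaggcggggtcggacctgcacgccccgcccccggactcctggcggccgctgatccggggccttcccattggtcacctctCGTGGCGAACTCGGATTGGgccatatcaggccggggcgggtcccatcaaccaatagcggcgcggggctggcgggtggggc
SDF2L1 (chr22:21642052-21642301): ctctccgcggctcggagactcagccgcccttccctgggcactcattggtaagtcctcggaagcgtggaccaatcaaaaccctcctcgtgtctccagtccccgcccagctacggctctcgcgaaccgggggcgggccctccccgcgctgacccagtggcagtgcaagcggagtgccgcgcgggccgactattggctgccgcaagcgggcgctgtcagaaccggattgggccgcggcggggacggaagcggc
MANF (chr3:51385041-51385290): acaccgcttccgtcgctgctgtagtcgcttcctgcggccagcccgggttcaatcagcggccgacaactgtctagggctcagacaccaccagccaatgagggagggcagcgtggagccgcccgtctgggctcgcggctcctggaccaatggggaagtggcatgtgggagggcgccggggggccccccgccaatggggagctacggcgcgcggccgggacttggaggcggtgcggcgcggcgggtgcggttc
Of the 5 genes with an ERSE match in the arrangement searched, CRELD2 was the only one called. Of the 9 with a CARE core, SLC3A2, whose match lies 38 bases after 1 of its 3 annotated starts, was the only one called. None of the 8 risen genes held a CARE core in these windows.

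The sensors and the classic reporters of the ER branch were not called. ERN1, which encodes IRE1, stood at 31.4, 29.3 and 26.4 CPM in the control and 28.1, 24.2 and 25.2 CPM with ppk1, lower in each pair with overlapping groups (log2 fold change -0.17, adjusted p 0.181). Its target XBP1 measured 200, 193 and 213 CPM against 192, 187 and 201 CPM, a log2 fold change of -0.06 (adjusted p 0.641). ATF6 was at 83.2, 92.0 and 103 CPM against 90.6, 85.8 and 94.1 CPM, up in pair B and down in C and D. HERPUD1, a degradation gene that both ATF6 and ATF4 can induce, measured 81.6, 70.1 and 69.6 CPM against 80.8, 71.6 and 73.4 CPM, with a log2 fold change of 0.03 (adjusted p 0.843).

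The luminal lectin and folding genes lay between these extremes. CALR, the calcium-binding lectin calreticulin, averaged 487 ± 30.1 and 561 ± 29.8 CPM, with separate groups and a log2 fold change of 0.21 (adjusted p 0.0737). It passed the threshold without pair D (0.0400) and with GC and length offsets (0.0414). HYOU1, an ER nucleotide exchange factor (237, 248 and 226 against 253, 264 and 274 CPM), and PDIA4, a disulfide isomerase (326 ± 9.18 against 351 ± 8.38 CPM), also had separate groups, with adjusted p-values of 0.186 and 0.389. The membrane lectin CANX, the degradation factors EDEM1 and SEL1L and the oxidase ERO1B had overlapping groups and log2 fold changes from -0.17 to 0.02.

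Across the 49 genes, all ppk1 libraries lay above all controls for 15 (30.6%) and below for 5 (10.2%). Among all tested genes these shares were 13.0 and 12.6%, a description only because the members were chosen with earlier results of these data known. The separate groups thus took in, besides the 10 called genes, EIF2AK2, PSAT1, MTHFD2, PYCR1, PDIA4, CALR and HYOU1 on the upper side and PPP1R15B, VLDLR and CTH on the lower side. In the IRE1 and ATF6 branch 6 of 14 genes were separate upward and 0 downward.

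Other genes of the same pathways were counted from lists that do not contain the 49, also chosen with earlier results of these data known. Of 16 genes for the eIF2 complex, its exchange factor eIF2B and their regulators, 0 were called by edgeR or DESeq2, with 2 of the 16 at an unadjusted p below 0.05 in each (edgeR, all tested genes: 23.8%). DELE1, which relays mitochondrial stress to HRI, had the smallest adjusted p of these (0.0527, log2 fold change 0.22) and was singled out after its value was seen. Over the whole table, edgeR called 791 genes higher and 986 lower (4.04% and 5.04% of those tested). DESeq2 called 324 and 431, and edgeR without pair C 82 and 324. Of 22 further ATF4-linked genes, 3 were higher and 4 lower with edgeR, 1 and 4 with DESeq2, and 0 and 2 with edgeR without pair C. The falls were GDF15, a stress cytokine (5.57 ± 0.82 to 2.85 ± 0.56 CPM, log2 fold change -0.97, adjusted p 2.5e-07), TXNIP, an inhibitor of thioredoxin (-0.45, 9.2e-05), KLHL24 (-0.37, 0.00117) and the stress factor ATF3 (-0.31, 0.00382), whose groups overlapped. The rises, named after their values were seen, were SESN2, an mTORC1 inhibitor (0.31), JDP2, a repressor of ATF-type factors (0.38), and the glycine carrier SLC6A9 (0.31), with adjusted p-values of 0.00494, 0.0202 and 0.00828. Without the block only GDF15 and TXNIP kept the call, with adjusted p-values of 0.00717 and 0.0452.

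Of 29 further unfolded protein response genes, edgeR called 1 higher (3.45%) and 0 lower, beside 4.04% and 5.04% of all tested genes. The risen gene was DERL3, a factor of ER-associated degradation (14.7 ± 0.75 to 17.9 ± 1.13 CPM, log2 fold change 0.28, adjusted p 0.0274). DESeq2 called 0 of the 29, with 5 at an unadjusted p below 0.05. With edgeR 5 were also at that level (17.2%), beside 23.8% of all tested genes. The 6 ER chaperone genes outside the 49 had 0 calls by either tool and 0 at an unadjusted p below 0.05. With edgeR 9.08% of all tested genes were called, a share at which 6 genes can readily give 0 calls. The 6 include HSPA5, which encodes BiP (778 ± 67.5 and 765 ± 86.1 CPM), and HSP90B1, which encodes GRP94 (969 ± 82.5 and 1012 ± 40.6 CPM). Both differed by less than the larger of their group SDs.

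The number of calls depended on the pairing and on pair C, for these genes and over the whole table. Without the block 4 of the 10 called genes kept the call (ATF5, CEBPB, INHBE and MANF). These 4 were the only calls among the 49 without the block (8.16%), beside 2.4% of all tested genes. Without pair C 3 kept it (ATF5, CEBPB and INHBE), without D 6 and without B 9. Over the whole table, calls numbered 406 without pair C, 1803 without D and 2435 without B, against 1777 with all pairs. The log2 fold changes of the 8 risen genes ran from 0.25 to 0.63 with all pairs and from 0.21 to 0.59 without C. Without D they ran from 0.19 to 0.55, and without B from 0.27 to 0.74. All 10 had the same direction in the 3 pairs. Under RLE and upper-quartile scaling, other count filters, DESeq2 and GC and length offsets, all 10 stayed called. Upper-quartile scaling, which moved the split of calls over all genes from 791 higher and 986 lower to 422 and 933, left the members at 8 higher and 3 lower, the addition being CTH. The ppk1 library of pair C had the highest mitochondrial share (5.72%) and also the highest level of 5 of the 8 risen genes. Pair D had the largest step for 7 of the 8. Leaving out a pair also made calls of genes not called otherwise: without B these were CBS (log2 fold change 0.36), CTH (-0.25) and SEL1L (-0.27), and without D they were CALR (0.23), DDIT4 (-0.38), ERN1 (-0.24) and VLDLR (-0.29). The part of the mitochondrial share in these results was not tested.

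**Figure D4:**
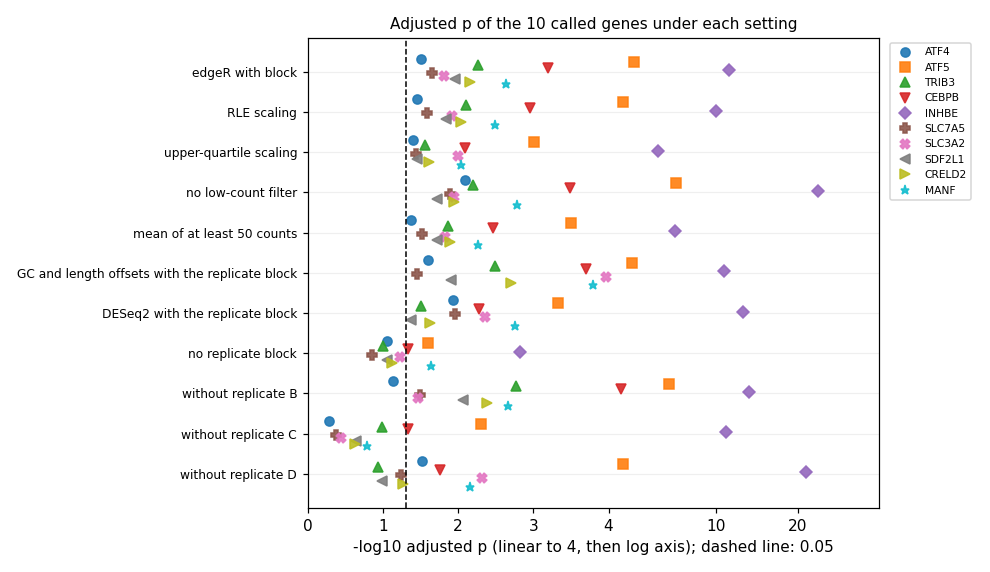
Adjusted p (x axis, as -log10, linear to 4 and logarithmic beyond) of the 10 called genes under edgeR with the replicate block and 10 alternatives (rows); the dashed line marks 0.05. INHBE, ATF5 and CEBPB lie right of the line in every row, while most other genes cross it without the block and without replicate C.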

How the data were processed

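The authors deposited 1 table of raw counts per gene, with no normalisation. The submitters' processing notes name bcl2fastq 2.20, Trimmomatic, STAR, HTSeq, edgeR, DESeq, Cufflinks and Cuffdiff without giving roles. Per the labels' protocols, libraries were poly(A)-selected and made with a directional kit. The genome build, annotation and strand setting of the counting are not given in the sources used here. Each column was matched to its sample by title, and 0 rows lacked a gene name.

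The counts were filtered with filterByExpr (minimum count 10), scaled by TMM and tested with edgeR 4.0.16 (glmQLFit, glmQLFTest, R 4.3.3) over all 19574 retained genes, with the replicate letter as a block, Benjamini-Hochberg adjustment and a threshold of 0.05. The procedure was tested on simulated data with planted changes larger than most of those called here, so smaller changes were not covered. CPM are counts per effective library size times 1e+06, pair differences use log2 CPM with a prior count of 2, and SE is the absolute log2 fold change over the square root of F. A count of 0 allows up to 3 counts, or 0.0447 to 0.0734 per 1e+06 counts of the unscaled library totals, for counting error only. Exon lengths, overlaps and shared 50-base stretches come from GENCODE release 29 (98.96% of identifiers matched) and promoters from RefSeq (GRCh38.p14).

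The pairing is taken from the series' design text. Deviations from group means correlated across genes at 0.109 (B), 0.135 (C) and 0.0476 (D) within letters and from -0.12 to -0.00506 between them. Centring on the group means by itself makes the values between letters negative on balance when those within letters are positive. Alternatives were no block, RLE, upper-quartile scaling, 2 other filters, DESeq2 1.42.0, GC and length offsets, and leaving out each pair. All members are accounted for by branch. Values in every library are given for called members and for fixed sensors and reporters, and other lists name up to 4 called genes. The members and lists were chosen with earlier results of these data known.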

Additional observations from a re-analysis of the deposited data

How the results depend on the processing

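Genes called over the whole table numbered 1777 with the block, 470 without the replicate block, 755 with DESeq2 and 2903 with GC and length offsets, and from 406 to 2435 when a pair was left out. Among the 49 genes, 8 were higher and 2 lower. Without the replicate block 3 were higher and 1 lower, with GC and length offsets 12 and 4, and when a pair was left out from 2 to 8 and from 1 to 5. Without the replicate block 3 genes of the ATF4 group, 0 transporters (2 at an unadjusted p below 0.05) and 1 gene of the IRE1 and ATF6 branch were called, against 5, 2 and 3. With GC and length offsets 2 genes of the kinase and phosphatase group and 3 enzymes were called, and with upper-quartile scaling 1 enzyme, against 0 and 0. Leaving out a pair gave from 3 to 6 calls in the ATF4 group, 0 to 2 among the enzymes, 0 to 2 among the transporters and 0 to 4 in the IRE1 and ATF6 branch. The counts of 0 in these last 3 branches came without pair C, where edgeR found 0, 2 and 3 genes at an unadjusted p below 0.05, and for the enzymes also without pair D (2 at that level). No branch median moved by more than the SD of its 3 pair medians, but that SD exceeded the size of most medians. Without pair D the median of the ATF4 group went from 0.02 to -0.02 (SD 0.11). That of the IRE1 and ATF6 branch went from 0.03 to -0.01 (SD 0.06). Of the 100 values of the 10 called genes under the alternatives, 82 kept the call, 18 lost it and 0 changed direction. The cause was not tested. The depth limits FGF21 most, with 31 to 67 counts a library.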
